A study of Rattus norvegicus with 21 samples.

Results

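Folliculostellate cells are the agranular, star-shaped cells of the anterior pituitary. They form a network that is coupled by gap junctions, release cytokines and annexin A1, and stain for S100 proteins, and a Sox2-positive population that overlaps them holds the stem cells of the gland. The genes described here are 9 markers of these cells: the stem cell transcription factors Sox2 and Sox9, the calcium-binding proteins S100b and S100a1, the gap junction protein Gja1, annexin A1 (Anxa1), the carboxypeptidase-like protein Cpxm2, the peptide transporter Slc15a2 (PEPT2), and Krt18, a keratin of simple epithelia. They were looked up by symbol in the annotation of the array, and where a gene had several probe sets, the brightest on average across the 21 arrays stood for it. Of the 9 genes, 8 had a probe set under their symbol among 29214 probe sets in all, which carry 14506 genes named by 1 symbol each. Sox9 was not analysed here because no probe set was annotated with that symbol.

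The arrays (Affymetrix, Rat Gene 1.0 ST) profiled 16 lesions from pituitaries of MENX rats, and 5 normal pituitaries of wild-type rats. MENX rats are homozygous for a germline mutation of p27Kip1, the cell cycle inhibitor that Cdkn1b encodes, and develop multifocal gonadotroph adenomas of the anterior lobe. All animals had the strain background Sprague–Dawley white eye/Wistar–Kyoto. The lesions carried 9 different sample numbers, read here as 9 rats, although the study counts 11 rats. Of these rats 4 gave 1 lesion, 3 gave 2 and 2 gave 3, and lesions of a rat were averaged, so that 9 adenoma values were compared with 5 wild-type values. By the labels the MENX rats were 7 to 12 months old (6 females, 3 males) and the wild-type rats 6 months (2 females, 3 males), so age and genotype cannot be told apart. The study's methods give a narrower age range for the tumor-bearing rats than the labels do. The tissue was dissected as bulk, so fewer cells of a type and less RNA per cell cannot be told apart for any gene below.

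Array medians lay between 6.36 and 6.53 on the log2 scale. Cdkn1b mRNA averaged 9.23 ± 0.17 in adenomas (SD, n = 9) and 8.91 ± 0.19 in wild-type pituitaries (SD, n = 5), which does not check a mutation that acts on the protein. SDs below have these n. The gonadotroph genes Gnrhr and Cga were higher in adenomas, and Cga reached 13.71 to 13.86 there, against 12.44 to 13.23 in wild-type pituitaries. Lhb and Fshb were lower in adenomas. All 3 measured markers of somatotrophs, all 3 of melanotrophs and corticotrophs, and 3 of 7 markers of pituicytes and astroglia were lower, while all 3 measured mitotic markers and 3 of 5 macrophage markers were higher. The lactotroph marker Prl averaged 13.77 in adenomas and 13.69 in wild-type pituitaries and was not called. Its values lay between 13.58 and 13.87 in all rats, near the highest value on the arrays, 14.09. The missing call thus does not show that lactotroph content was unchanged. By the test described below, 9.06% of all probe sets were called lower and 8.49% higher. The part of these other cell types in the results below was not tested.

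Because the markers were followed as a set, the stretches of DNA before the start of 4 of them are shown first. Promoter sequence was given for 7 of the 8 measured markers (RefSeq, build GRCr8). Capitals mark the short motifs searched for on both strands, namely the SOX cores ACAAAG and ACAATG, the TEAD core GGAATG and the RBPJ core TGGGAA, which do not overlap each other in the 4 sequences. Cpxm2, Slc15a2 and Sox2 are shown because their transcripts were lower in adenomas, and Anxa1 because it was the marker with matches to more than 1 motif. Each run covers the 250 bases before the start, 5′ to 3′.
Cpxm2, chr1:196377348-196377597, - strand: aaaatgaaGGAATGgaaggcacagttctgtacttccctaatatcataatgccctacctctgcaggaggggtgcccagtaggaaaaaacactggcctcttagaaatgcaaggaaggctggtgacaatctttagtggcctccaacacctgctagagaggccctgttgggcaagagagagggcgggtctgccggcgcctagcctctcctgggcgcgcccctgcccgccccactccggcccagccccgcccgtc
Slc15a2, chr11:77519315-77519564, + strand: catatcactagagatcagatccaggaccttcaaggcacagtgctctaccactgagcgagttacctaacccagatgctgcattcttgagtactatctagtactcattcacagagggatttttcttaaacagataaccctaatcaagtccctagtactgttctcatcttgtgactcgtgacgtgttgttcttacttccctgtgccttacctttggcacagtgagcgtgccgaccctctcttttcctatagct
Sox2, chr2:119464881-119465130, + strand: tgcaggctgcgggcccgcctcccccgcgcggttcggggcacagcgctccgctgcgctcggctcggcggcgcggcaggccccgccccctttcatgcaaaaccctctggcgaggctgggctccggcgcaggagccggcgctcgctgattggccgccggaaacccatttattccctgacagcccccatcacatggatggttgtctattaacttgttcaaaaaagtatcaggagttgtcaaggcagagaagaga
Anxa1, chr1:227303733-227303982, - strand: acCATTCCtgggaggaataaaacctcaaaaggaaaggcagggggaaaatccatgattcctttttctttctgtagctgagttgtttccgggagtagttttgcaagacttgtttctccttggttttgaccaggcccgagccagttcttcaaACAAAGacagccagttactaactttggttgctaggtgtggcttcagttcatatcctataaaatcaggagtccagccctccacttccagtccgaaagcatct

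Among the 7 promoters, searched from 250 bases before to 50 bases after the start, ACAAAG was found in 2 (Anxa1 and Krt18), which compares with 18.8% of all 33469 promoters of that length. GGAATG was found in 2 (Cpxm2 and Anxa1), with 14.2% of all promoters. ACAATG, held by 13.2% of all promoters, and TGGGAA, held by 25.7%, were in none of the 7. The TEAD core of Cpxm2 starts 242 bases before the start, and Anxa1 holds a further ACAAAG after its start that the printed run does not cover. These matches describe letters only, and no motif of the 4 was shared by the promoters of Sox2, Cpxm2 and Slc15a2.

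Of the 8 markers, 4 were lower in adenomas than in wild-type pituitaries at an adjusted p under 0.05 (limma moderated test, Benjamini-Hochberg over all 29214 probe sets), and 0 were higher. They were S100a1, Cpxm2, Slc15a2 and Sox2. Over all probe sets 9.06% were called lower and 8.49% higher. The median log2 fold change was -0.36 over the 8 markers, against -0.03 over all probe sets. At an unadjusted p under 0.05, 1 marker was higher, Krt18, with p = 0.0322 and an adjusted p of 0.116 in the same limma fit.

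**Figure D1:**
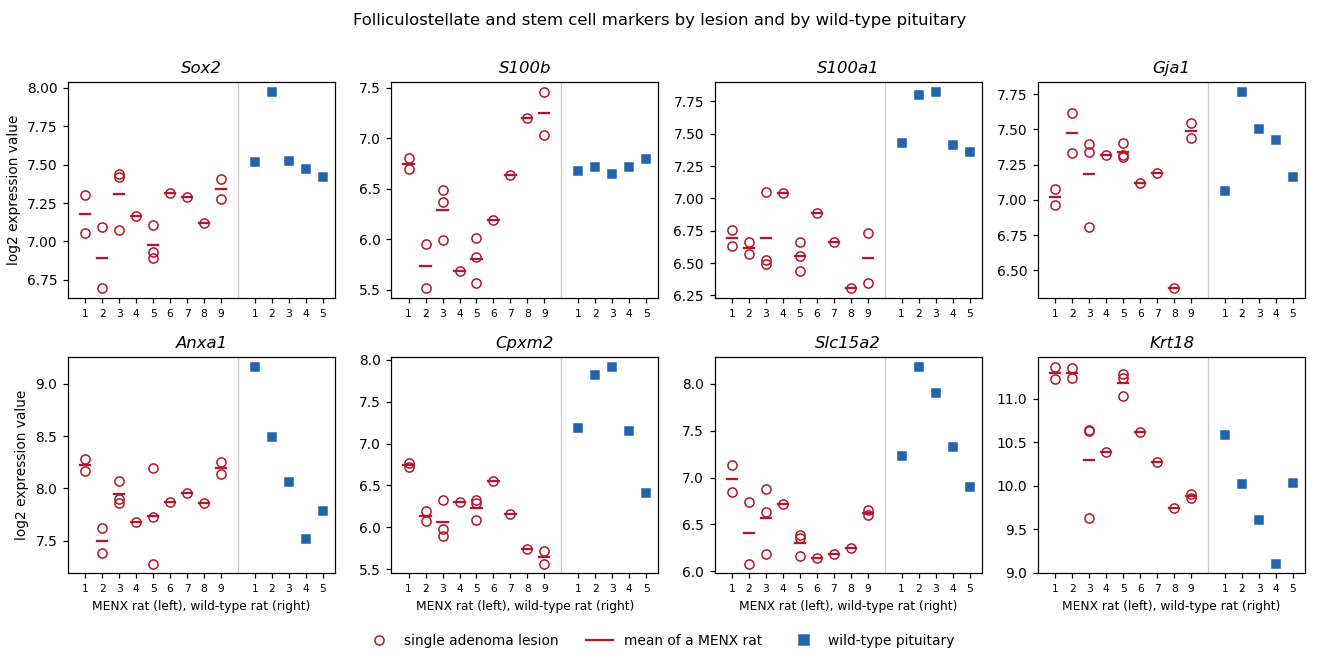
Log2 expression values (vertical axes, each with its own range) of the 8 measured markers in single adenoma lesions (open circles) with the mean of each of the 9 MENX rats (short lines), left, and in 5 wild-type pituitaries (squares), right. The adenoma means of S100a1 and Sox2 all lie below the 5 wild-type values, while those of S100b lie on both sides of a narrow wild-type band between 6.64 and 6.80.

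Sox2, the transcription factor of pituitary stem and progenitor cells, had values between 6.89 and 7.34 in the MENX rats (median 7.18). The wild-type pituitaries had 7.52, 7.97, 7.52, 7.47 and 7.42. All 9 adenoma values lay below all 5 wild-type values, a separation in this direction that 2.16% of all probe sets showed. The difference was small: adenomas averaged 7.18 ± 0.16 (SD, n = 9) and wild-type pituitaries 7.58 ± 0.22 (SD, n = 5), a log2 fold change of -0.40 (SE 0.10, adjusted p = 0.0143), or 1.32-fold lower. Of the 16 single lesions, 14 lay below every wild-type value, and lesions 6 and 7, both of rat 3, were the exceptions at 7.44 and 7.42.

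The call for Sox2 was lost within each of the number series of the samples. With the samples numbered 08 alone (5 MENX, 2 wild-type) the log2 fold change was -0.64 (adjusted p = 0.0777), and with those numbered 09 alone (4 MENX, 3 wild-type) it was -0.20 (adjusted p = 0.214). All male MENX rats were numbered 08, and all MENX rats numbered 09 were female. Number series and sex thus cannot be fully told apart among the adenomas, here and in the series comparisons below. The second wild-type pituitary, at 7.97, stood well above the other 4.

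Beside Sox2, 13 of 16 listed SOX factors were measured, and 2 of them were higher in adenomas. The shares over all probe sets, for this and the gene lists below, were 9.06% lower and 8.49% higher. Sox11, a factor of neuronal and embryonic progenitors, averaged 9.01 ± 0.45 in adenomas and 7.46 ± 0.33 in wild-type pituitaries, a log2 fold change of 1.54 (adjusted p = 0.000324), and all 9 adenoma values lay above all wild-type values, as for 2.66% of probe sets. Sox17, a factor of endoderm and endothelium, differed by 0.26 (adjusted p = 0.0147), which no longer passed the test within either number series alone. The median log2 fold change of the 13 was 0.09. None of the 13 was called lower, and Sox6 had a log2 fold change of -0.36 (adjusted p = 0.0609).

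S100a1, a calcium-binding protein of the S100 family that folliculostellate cells hold, had values between 6.30 and 7.04 in the MENX rats (median 6.67). The 5 wild-type glands had 7.43, 7.80, 7.83, 7.41 and 7.36. The gap between the groups was the cleanest of the set, since all 16 lesions lay below every wild-type pituitary. Adenomas averaged 6.67 ± 0.21 (SD, n = 9) and wild-type pituitaries 7.56 ± 0.23 (SD, n = 5), a log2 fold change of -0.90 (SE 0.12, adjusted p = 0.000246), or 1.86-fold lower. The call held within each number series and in all 14 fits that left out 1 rat.

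Among the MENX rats S100a1 had a negative slope with age. It was -0.10 log2 units a month (SE 0.02, n = 9, unadjusted p = 0.00175, adjusted p = 0.176 by limma), so it did not pass after adjustment. Over all probe sets 0.00342% passed for this slope, which is 1 probe set, and 3434 had an unadjusted p under 0.05. The rats of 7 and 8 months, numbers 4 and 6, had the highest S100a1 values at 7.04 and 6.89.

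Some S100 genes near S100a1 were lower as well. Of 12 further S100 genes listed, 11 were measured, 3 were lower in adenomas and 0 higher, with a median log2 fold change of -0.01. S100a16 averaged 6.35 ± 0.23 in adenomas and 7.02 ± 0.14 in wild-type pituitaries (log2 fold change -0.67, adjusted p = 0.000996). S100a13 averaged 5.95 ± 0.16 in adenomas and 6.29 ± 0.13 in wild-type pituitaries (-0.35, adjusted p = 0.0142), and S100a11 averaged 8.33 ± 0.40 in adenomas and 9.27 ± 0.35 in wild-type pituitaries (-0.94, adjusted p = 0.00479). In the RefSeq order of GRCr8, S100a13 is the next S100 gene after S100a1 on chromosome 2 and S100a16 follows S100a14, in the cluster that also holds S100a4 and S100a6. S100a11 lies on the same chromosome at a distance, and S100b on chromosome 20. S100a4 (log2 fold change 0.67, adjusted p = 0.0705) and S100a6 (0.05, adjusted p = 0.815) did not pass the test. S100a13 lost its call within each number series. S100a11 lost it with the samples numbered 08 alone (limma adjusted p = 0.0727), and S100a16 with those numbered 09 alone (0.0658). S100a11 had 4 probe sets, of which only the brightest on average is given.

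S100b, the protein most used to stain folliculostellate cells and also abundant in glia and Schwann cells, gave another picture. The wild-type pituitaries were nearly alike, at 6.68, 6.71, 6.64, 6.72 and 6.80. The MENX rats, numbered 1 to 9, had 6.75, 5.73, 6.28, 5.69, 5.80, 6.19, 6.63, 7.20 and 7.25. Thus 6 rats lay below all wild-type values, 2 above them and 1 within. The means of 6.39 ± 0.60 in adenomas (SD, n = 9) and 6.71 ± 0.06 in wild-type pituitaries (SD, n = 5) were not separated by the test (log2 fold change -0.32, SE 0.25, adjusted p = 0.398), and the value turned with the number series, being -0.65 in the samples numbered 08 and 0.10 in those numbered 09. The spread was the marked feature, with an SD of 0.602 between MENX rats, 0.246 between lesions of a rat (7 degrees of freedom) and 0.0565 between wild-type pituitaries. Over single lesions the values covered a 3.86-fold range, with 11 of 16 below and 4 above the wild-type pituitaries. The slope with age among MENX rats was 0.20 log2 units a month (SE 0.08, unadjusted p = 0.0397, adjusted p = 0.400 by limma).

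The genes most like S100b, by Pearson r over the 14 values after subtraction of each group mean, were Tyrp1 (r = 0.94), Fbln2 (r = 0.93) and Pmp22 (r = 0.93). They were chosen for this likeness, so the values are a description with no test. Tyrp1 encodes an enzyme of melanin synthesis in pigment cells, Pmp22 a protein of peripheral myelin and Fbln2 a matrix protein, fibulin 2. Tyrp1 had 9.37, 4.82, 5.68, 5.25, 5.48, 5.25, 8.28, 9.82 and 10.06 in MENX rats 1 to 9, against 5.00 to 5.86 in the wild-type pituitaries. The rats with the 4 highest S100b values, numbers 1, 7, 8 and 9, were thus the same 4 that had Tyrp1 above 8. Both lesions of rat 1 (9.66 and 9.08) and both of rat 9 (10.25 and 9.88) were high, and of the 3 lesions of rat 3 only lesion 7 was above the wild-type range, at 6.93. Pmp22 ranged between 6.74 and 9.91 in the MENX rats, against 6.92 to 7.38 in wild-type pituitaries, and it was also high in lesion 7, at 9.28. S100b itself was 6.49 in lesion 7, below every wild-type value. Fbln2 differed between lesions 1 and 2 of rat 1, at 6.54 and 7.57, against 6.39 to 6.74 in wild-type pituitaries.

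**Figure D2:**
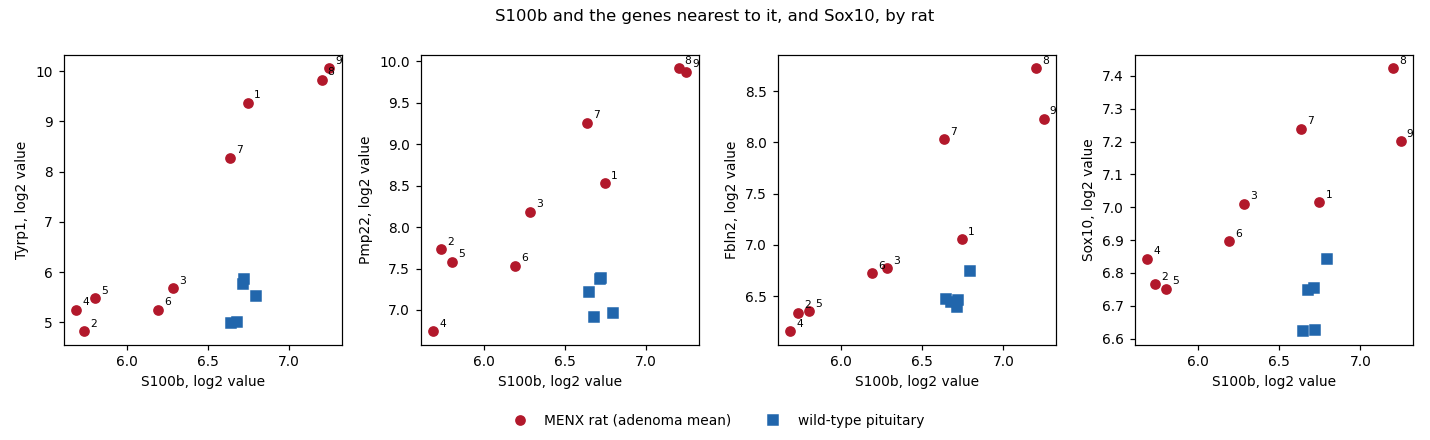
S100b (horizontal axes, log2 value) against Tyrp1, Pmp22, Fbln2 and Sox10 (vertical axes, log2 value) in the 9 MENX rats (circles, numbered by rat) and 5 wild-type pituitaries (squares). Rats 8 and 9 are at the top of S100b. For Tyrp1 the MENX rats fall apart, with rats 1, 7, 8 and 9 at 8.28 to 10.06 and the others at 4.82 to 5.68. The wild-type pituitaries form a tight group with Tyrp1 between 5.00 and 5.86.

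Markers of other S100b-bearing cells were set beside this spread. Of the 4 Schwann cell markers listed, Sox10 and Foxd3 were measured, and their mean had a positive correlation with S100b across the 9 MENX rats (Pearson r = 0.82, exact two-sided permutation p = 0.00518, adjusted p = 0.193; Spearman rho = 0.78, p = 0.0172, adjusted p = 0.285; r = 0.61 without the 2 rats farthest from the median). This was 1 of 80 relations between 8 markers and 10 cell type lists, of which 7 had p under 0.05 and 0 passed the Benjamini-Hochberg adjustment. The macrophage mean had r = 0.62 with S100b (exact permutation p = 0.0734) and rho = 0.80 (p = 0.0138, adjusted p = 0.285). The somatotroph mean had r = -0.73 with S100b (exact permutation p = 0.0304, adjusted p = 0.347). Krt18 (r = -0.81) and Cpxm2 (r = -0.72) with the Schwann cell mean were also under 0.05. So were Sox2 with pituicytes and astroglia (r = 0.79), S100a1 with macrophages (r = -0.76) and Gja1 with endothelial markers, described below. Sox10, a factor of neural crest cells and Schwann cells, had 6.75 to 7.42 in the MENX rats, against 6.62 to 6.84 in the wild-type pituitaries, while Foxd3 had 6.64 to 6.90 in the MENX rats and 6.46 to 7.02 in the wild-type pituitaries. Taken singly, Sox10 had r = 0.91 with S100b (exact permutation p = 0.00107, rho = 0.85, p = 0.00607) and Foxd3 had r = 0.16 (exact permutation p = 0.674, rho = 0.05, p = 0.912). The mean of the 7 measured markers of pituicytes and astroglia had r = 0.48 with S100b (exact permutation p = 0.193, adjusted p = 0.675; rho = 0.40, p = 0.291, adjusted p = 0.862). Among those 7, Fabp7 had the highest r, 0.90 (exact permutation p = 0.00214, rho = 0.85, p = 0.00607), followed by Gfap (0.66), and Slc1a3, Aqp4, Slc1a2 and Rax had a negative r, down to -0.53 for Rax. By rank Slc1a2 was the lowest of the 7, with rho = -0.73 (exact permutation p = 0.0311, adjusted p = 0.0934). Of the 9 single glial and Schwann cell genes, Sox10 and Fabp7 both had an adjusted p of 0.00964 by r and 0.0273 by rho over these 9 relations, and the other 7 did not pass that adjustment. Single genes were examined for S100b only, in the same 9 rats as the 80 relations. The adjustment over 9 does not count that choice of S100b among the 8 markers. Fabp7, a lipid-binding protein of glia, ranged between 5.99 and 7.21 in the MENX rats, against 6.10 to 6.42 in the wild-type pituitaries. Its 4 highest values were in rats 1, 7, 8 and 9. The lesions of rat 1 disagreed, with Fabp7 at 6.00 in lesion 1 and 7.18 in lesion 2. The mean of the 2 Schwann cell markers was 6.76 to 7.16 in adenomas and 6.54 to 6.88 in wild-type pituitaries, and neither gene passed the test between the groups. Rats 1, 7, 8 and 9 were all females of 11 or 12 months, so that age, sex and the S100b level cannot be told apart there. The part of such cells in the S100b values was not tested.

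Gja1, the connexin of the gap junctions that couple folliculostellate cells, had values between 6.37 and 7.49 in the MENX rats (median 7.19). Wild-type pituitaries 1 to 5 had 7.06, 7.77, 7.50, 7.43 and 7.16, so the groups overlapped in 7 of 9 rats. Adenomas averaged 7.17 ± 0.34 (SD, n = 9) and wild-type pituitaries 7.38 ± 0.28 (SD, n = 5), a log2 fold change of -0.22 (SE 0.17, adjusted p = 0.388) that did not pass the test. Rat 8 stood apart from the other MENX rats at 6.37, with the next lowest, rat 1, at 7.02. The log2 fold change was -0.12 without rat 8, and likewise -0.12 without wild-type pituitary 2.

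Gja1 followed the mean of 4 endothelial markers (Pecam1, Cdh5, Kdr and Flt1) across the MENX rats, with Pearson r = 0.95 (exact two-sided permutation p = 0.000752, adjusted p over 80 relations 0.0602), Spearman rho = 0.80 (p = 0.0138, adjusted p = 0.285) and r = 0.79 without the 2 rats farthest from the median. The genes most like Gja1 over the 14 values were Gle1, a factor of mRNA export (r = 0.87), and the endothelial genes Plvap and Tek (both r = 0.86). The endothelial mean was 7.21 to 8.00 in adenomas and 7.25 to 7.77 in wild-type pituitaries, and 1 of the 4 markers, Flt1, was higher in adenomas. The part of endothelial cells in the Gja1 values was not tested.

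Of 14 further genes listed, the connexins with pannexin 1, 9 were measured, with a median log2 fold change of 0.03. Gjd2, a connexin that couples neurons and endocrine cells, averaged 9.43 ± 0.41 in adenomas and 7.25 ± 0.49 in wild-type pituitaries, 4.54-fold higher (log2 fold change 2.18, adjusted p = 4.14e-05), and its groups did not overlap. Gjb6, an astroglial and epithelial connexin, averaged 7.34 ± 0.70 in adenomas and 8.50 ± 0.64 in wild-type pituitaries, a log2 fold change of -1.17 (adjusted p = 0.0284). That call was lost without wild-type pituitary 1 or 3, with values of -0.96 to -1.11.

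Anxa1, the glucocorticoid-induced mediator through which folliculostellate cells restrain corticotrophs, had values between 7.50 and 8.23 in the MENX rats (median 7.87). In the wild-type pituitaries the values were 9.16, 8.49, 8.06, 7.52 and 7.78, a wider range than that of the adenomas, and only rat 2 lay below all of them. Adenomas averaged 7.89 ± 0.23 (SD, n = 9) and wild-type pituitaries 8.20 ± 0.64 (SD, n = 5), with a log2 fold change of -0.32 (SE 0.21, adjusted p = 0.318). The value turned with the number series: it was -1.005 in the samples numbered 08 and 0.18 in those numbered 09. It also moved with single glands, to -0.08 without wild-type pituitary 1 and -0.49 without wild-type pituitary 4. Of 11 further annexins and formyl peptide receptors, through which annexin A1 acts, 10 were measured and 2 were higher in adenomas. Anxa5 averaged 11.04 ± 0.34 in adenomas and 10.30 ± 0.31 in wild-type pituitaries (log2 fold change 0.74, adjusted p = 0.0077). Anxa6 was higher by 0.44 (adjusted p = 0.0447), a call that 9 of the 14 fits without 1 rat lost (values 0.34 to 0.45).

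Cpxm2, a member of the carboxypeptidase family without known enzymatic activity, had values between 5.64 and 6.74 in the MENX rats (median 6.15). The wild-type glands 1 to 5 had 7.18, 7.82, 7.92, 7.15 and 6.40. The groups overlapped only through wild-type pituitary 5, at 6.40, which rats 1 (6.74) and 6 (6.55) exceeded. Adenomas averaged 6.17 ± 0.35 (SD, n = 9) and wild-type pituitaries 7.29 ± 0.61 (SD, n = 5), a log2 fold change of -1.12 (SE 0.23, adjusted p = 0.00419), or 2.17-fold lower. Rats 8 and 9 were the lowest at 5.74 and 5.64, and they were the highest for S100b. In the samples numbered 09 alone the value was -1.13 with an adjusted p of 0.0629.

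Slc15a2, the transporter by which folliculostellate cells take up small peptides, had values between 6.14 and 6.99 in the MENX rats (median 6.41). Against these, the wild-type pituitaries had 7.23, 8.18, 7.91, 7.33 and 6.90. All MENX rats except rat 1 lay below every wild-type value, and 15 of 16 lesions did. Adenomas averaged 6.46 ± 0.28 (SD, n = 9) and wild-type pituitaries 7.51 ± 0.52 (SD, n = 5), a log2 fold change of -1.05 (SE 0.19, adjusted p = 0.00225), or 2.07-fold lower. In the samples numbered 08 alone the value was -1.11 with an adjusted p of 0.0721.

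In the wild-type pituitaries the same 2 animals, males numbered 2 and 3, had the highest values of S100a1, Cpxm2 and Slc15a2, and the female pituitary 5 had the lowest value of each. The adenoma effect on log2 scale was -0.61 in females and -1.48 in males for Cpxm2, and -0.58 in females and -1.38 in males for Slc15a2. The interaction of group and sex had unadjusted p-values of 0.0539 for Cpxm2 and 0.0358 for Slc15a2, and adjusted p-values of 0.746 and 0.702 (limma). Over all probe sets 0% passed for this interaction (0 of 29214), with 1981 at an unadjusted p under 0.05, or 6.78%. All male MENX rats were numbered 08, so sex and number series cannot be fully told apart in these effects.

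All 9 further peptide transporters and carboxypeptidases listed were measured, with 1 higher, 2 lower and a median log2 fold change of -0.07. Cpxm1, the nearest relative of Cpxm2, averaged 5.44 ± 0.14 in adenomas and 5.85 ± 0.13 in wild-type pituitaries (log2 fold change -0.41, adjusted p = 0.00414), with no overlap. Its call was lost within each number series alone. Cpz, a carboxypeptidase that binds Wnt proteins, averaged 8.25 ± 0.67 in adenomas and 7.07 ± 0.45 in wild-type pituitaries (1.18, adjusted p = 0.0151), with an adjusted p of 0.0506 and a value of 1.08 without wild-type pituitary 4. Cpd, a carboxypeptidase of the secretory pathway, differed by -0.25 (adjusted p = 0.0462), and 11 of the 14 fits without 1 rat lost that call (values -0.21 to -0.26).

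Krt18, which pairs with keratin 8 in simple epithelia, was the only marker with a higher mean in adenomas. The MENX rats, numbered 1 to 9, had 11.30, 11.29, 10.30, 10.39, 11.18, 10.62, 10.28, 9.74 and 9.88. In wild-type pituitaries 1 to 5 they were 10.58, 10.02, 9.61, 9.10 and 10.03. Rats 1, 2, 5 and 6 lay above every wild-type value, and the other 5 overlapped with them. Adenomas averaged 10.55 ± 0.59 (SD, n = 9) and wild-type pituitaries 9.87 ± 0.55 (SD, n = 5), with a log2 fold change of 0.68 (SE 0.29, adjusted p = 0.116). The call was gained without wild-type pituitary 1, with a value of 0.86 and an adjusted p of 0.0483. A further 2 probe sets of the gene gave 0.83 (adjusted p = 0.0783) and 0.36 (adjusted p = 0.231). Where a gene has several probe sets, near-identical copies can share signal between them. The effect was 0.06 in females and 1.35 in males (interaction p = 0.0311, adjusted p = 0.699). Here too, all male MENX rats were numbered 08.

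The gene most like Krt18 over the 14 values was its partner Krt8, by both of its probe sets (r = 0.95 and 0.94). Krt8 averaged 9.93 ± 0.56 in adenomas and 8.90 ± 0.53 in wild-type pituitaries, 2.04-fold higher (log2 fold change 1.03, adjusted p = 0.0198), and without wild-type pituitary 3 or 4 the call was lost (0.86 and 0.91). Krt7, another keratin of simple epithelia, averaged 7.64 ± 0.63 in adenomas and 6.66 ± 0.33 in wild-type pituitaries (0.97, adjusted p = 0.024), and it lost the call without wild-type pituitary 3 or 5 (0.87 to 0.92). Of 9 keratins listed beside Krt18, 8 were measured, and only these 2 were called, with a median log2 fold change of -0.03. Krt8 passing and Krt18 not passing does not show that the pair differ, and that difference was not tested.

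**Figure D3:**
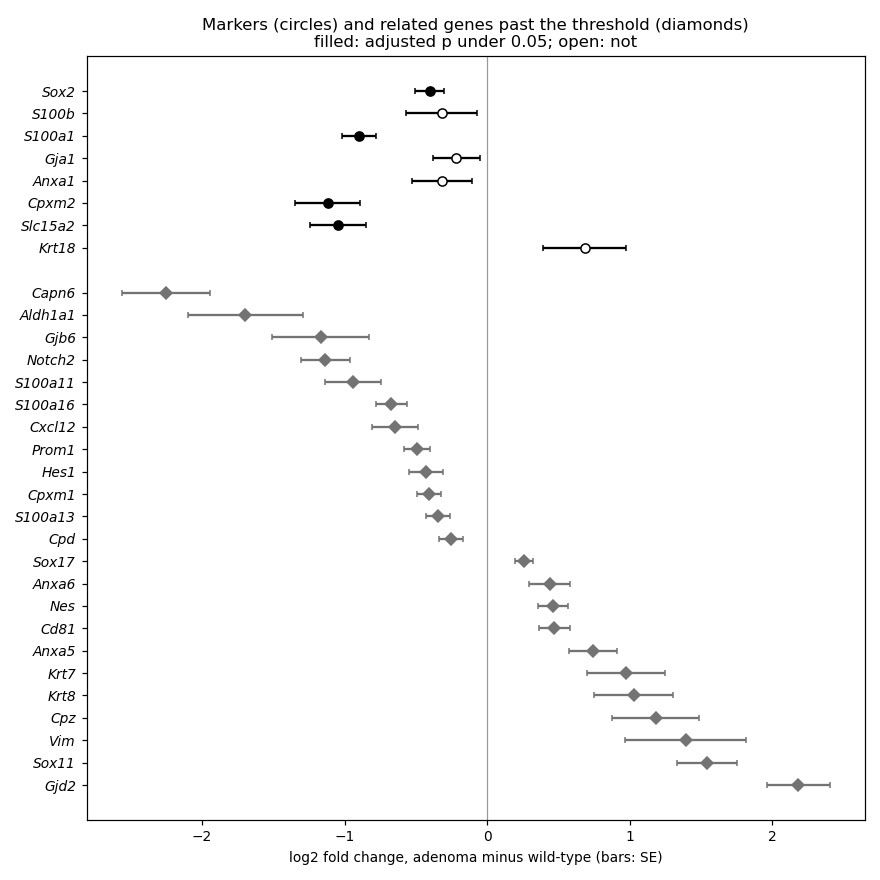
Log2 fold change, adenoma minus wild-type, with its SE (horizontal bars) for the 8 measured markers (circles) and for the listed related genes named in the text (diamonds). Filled symbols passed an adjusted p under 0.05, and the 4 filled markers lie between -1.12 for Cpxm2 and -0.40 for Sox2.

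A list of 24 other folliculostellate and stem cell genes, of which 22 were measured, split in both directions, with 6 lower, 4 higher and a median log2 fold change of -0.04. Over all probe sets the shares were 9.06% lower and 8.49% higher. Capn6, a calpain without protease activity, averaged 7.18 ± 0.68 in adenomas and 9.44 ± 0.45 in wild-type pituitaries, 4.77-fold lower (log2 fold change -2.25, adjusted p = 0.000324), and its groups did not overlap. Aldh1a1, the retinaldehyde dehydrogenase that marks stem cells in many tissues, averaged 8.08 ± 0.71 in adenomas and 9.78 ± 0.98 in wild-type pituitaries (-1.70, adjusted p = 0.01). Notch2, a receptor of the Notch pathway that keeps progenitors undifferentiated, averaged 7.13 ± 0.27 in adenomas and 8.27 ± 0.42 in wild-type pituitaries (-1.14, adjusted p = 0.00056). Hes1, a target of Notch signaling, was lower too, by -0.43 on the log2 scale (adjusted p = 0.022), as were Cxcl12 and Prom1. Vim (vimentin), an intermediate filament of mesenchyme and glia, averaged 9.94 ± 1.01 in adenomas and 8.55 ± 0.34 in wild-type pituitaries (1.39, adjusted p = 0.0344). It lost the call in 5 of the 14 fits without 1 rat, those without wild-type pituitary 1, 3, 4 or 5 or without MENX rat 7 (values 1.25 to 1.48). Nes (nestin), a filament of neural stem cells, was higher by 0.46 and Cd81, a tetraspanin, by 0.47. Of the 23 genes of the related lists called higher or lower, 15 kept the call in all 14 fits without 1 rat. Hes1 lost it without wild-type pituitary 3 or 5 (values -0.40 to -0.36). The call was lost by 19 with the samples numbered 08 alone, by 10 with those numbered 09 alone, and by all 23 with the adenomas of 7 or 8 months alone. Gjb6 had -1.66 with the numbers 08, -0.86 with the numbers 09 and -0.15 with the adenomas of 7 or 8 months, and Vim had 1.00, 2.02 and 0.45. Nes, Cd81, Hes1, Cxcl12 and Prom1 were chosen for naming after their values were seen.

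Covariation of the markers was examined next. The 8 markers form 28 pairs, and across the 9 MENX rats 18 pairs had a positive Pearson r, with a median of 0.15 and a range between -0.62 and 0.77. Of the 28, 3 had an exact two-sided permutation p under 0.05 by Pearson and 4 by Spearman, and 0 passed the Benjamini-Hochberg adjustment over the pairs. S100b and Anxa1 had the highest r, 0.77 (p = 0.0148, rho = 0.78, p = 0.0172, adjusted p = 0.319 and 0.258), and 0.92 without the 2 rats farthest from the median of S100b. Cpxm2 and Krt18 had r = 0.72 (p = 0.0304, rho = 0.73, p = 0.0311, adjusted p = 0.319 and 0.258; 0.49 without the 2 farthest rats). Sox2 and Anxa1 had r = 0.70 (p = 0.0342, rho = 0.72, p = 0.0369, adjusted p = 0.319 and 0.258), and this one rested on 2 rats, since r was 0.31 without them. S100a1 and Cpxm2 passed by rank only (r = 0.62, p = 0.071; rho = 0.77, p = 0.0214, adjusted p = 0.358 and 0.258).

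S100b had a negative r with Krt18 (-0.62), S100a1 (-0.59), Gja1 (-0.50) and Cpxm2 (-0.46), none of which had a p under 0.05. The 9 rats fall in 2 number series of 5 and 4 rats, too few to give a correlation within either. In 14 of the 28 pairs the sign differed between the series, among them S100b with Cpxm2 and S100b with Krt18, both positive in the series numbered 08 and negative in that numbered 09. With so few rats a sign is uncertain too, and these carry no test. The median r over pairs turned to -0.054 without the 2 rats farthest from the median of each pair, and to -0.0011 without rat 1 and -0.13 without rat 8.

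**Figure D4:**
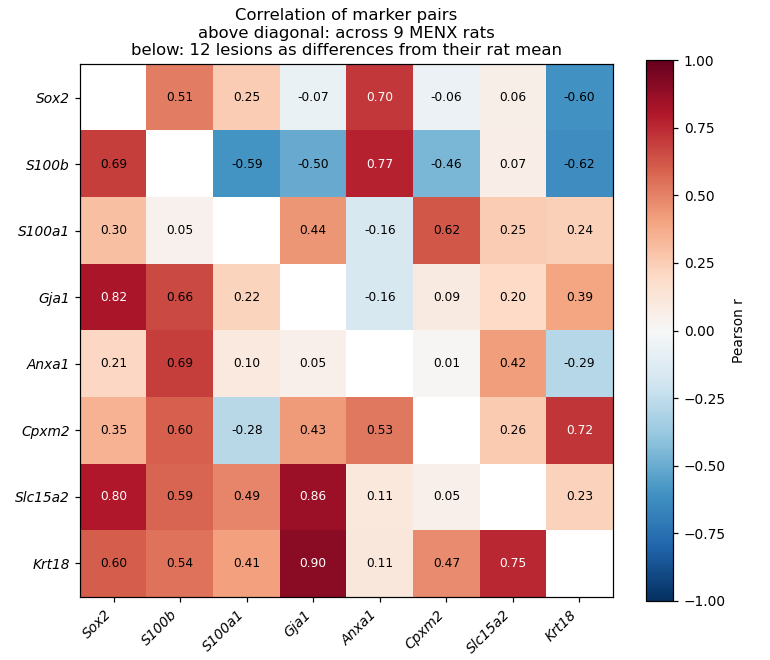
Pearson r for the 28 pairs of markers, above the diagonal across the means of 9 MENX rats and below it across 12 lesions of 5 rats taken as differences from the mean of their rat (colour scale -1 to 1). Above the diagonal 18 of 28 pairs are positive, and below it 27 of 28.

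Lesions of the same rat gave another view. In the 5 rats with more than 1 lesion, the 12 lesions were expressed as differences from the mean of their rat, which removes what differs between rats. These points share rats and have 7 degrees of freedom, so r is given as a description with no p. Here 27 of 28 pairs had a positive r, with a median of 0.48. Gja1 and Krt18 had the highest, 0.90, followed by Gja1 with Slc15a2 (0.86) and with Sox2 (0.82). For comparison, each marker had a positive r of this kind with 47.2% to 52.9% of all other probe sets. The 28 pairs share markers and lesions, so these shares do not say how often 27 of 28 would arise.

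Lesion 5 of rat 3 carried much of this. All 8 markers were below the mean of their rat in it, by 0.29 on average, and Krt18 had 9.63 there, against 10.64 and 10.62 in lesions 6 and 7 of that rat. Slc15a2 had 6.19 in lesion 5, against 6.88 and 6.63. Without the 3 lesions of rat 3 the median r was 0.21 and 21 of 28 pairs were positive. In rat 2, 7 of 8 markers were higher in lesion 3 than in lesion 4, with Cpxm2 as the exception. In rat 5, Anxa1 had 7.29, 8.20 and 7.73 in lesions 9, 10 and 11, the widest range of the marker within a rat.

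**Figure D5:**
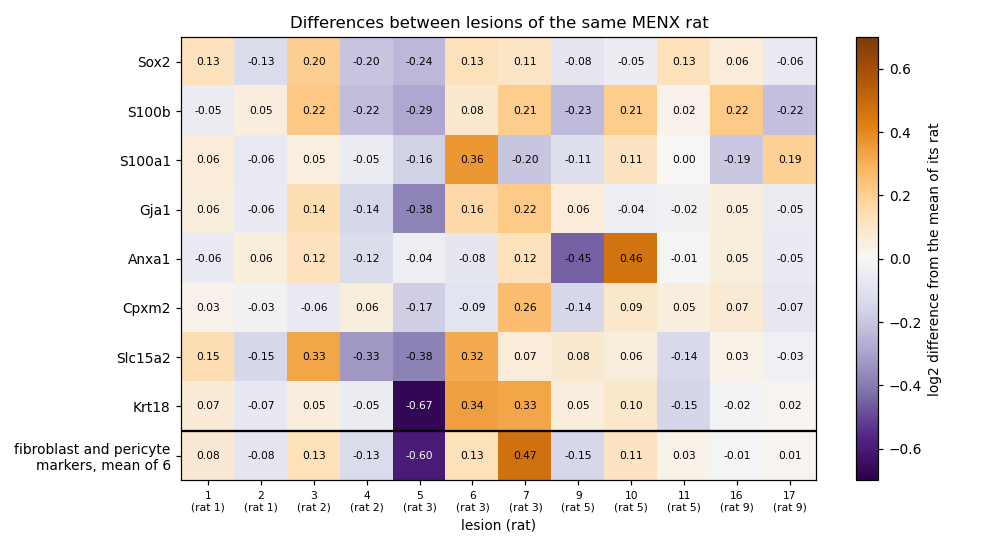
Differences of 12 single lesions from the mean of their rat (log2 units, colour and printed value) for the 8 markers and, below the line, for the mean of 6 fibroblast and pericyte markers. Lesion 5 of rat 3 is below its rat's mean for all 8 markers and by 0.60 for the fibroblast and pericyte mean.

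The mean of 6 fibroblast and pericyte markers (Col1a1, Col1a2, Dcn, Lum, Pdgfrb and Rgs5) moved with the markers in the same differences. It was 0.60 below the mean of its rat in lesion 5 and 0.47 above it in lesion 7, and its r with the mean of the 8 markers was 0.90 over the 12 lesions. This was the highest r among the 10 cell type lists. The endothelial mean had r = 0.67, the gonadotroph mean 0.68 and the mitotic mean -0.55. The remaining lists lay between -0.21 for melanotrophs and corticotrophs and 0.33 for Schwann cells. The fibroblast and pericyte mean was 7.85 to 8.74 in adenomas and 7.84 to 8.57 in wild-type pituitaries, with 2 of 6 markers called higher. The part of these cells in the covariation was not tested.

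For the remaining markers the nearest genes by Pearson r over the 14 values were as follows. Sox2 was nearest to Wsb2 (0.83), Crispld2 and Asrgl1 (both 0.82). S100a1 was nearest to Phex (0.87), Serpinb9 and Serpinb2 (both 0.86), and Slc15a2 to Ift43 (0.91), Omd (0.89) and Ostf1 (0.88). Anxa1 was nearest to Tmem184c (0.92), Lmf2 and Eif3j (both 0.91), and Cpxm2 to Mboat7 (0.93), Chodl (0.92) and Tekt2 (0.91). Krt18 was next nearest to Slc9a8 (0.93). The mean of the 8 markers was nearest to Mpzl2, Gstm5 and Pnp (each 0.91), then Pdyn and Ppp1r11 (both 0.90). Across so many probe sets some reach a high r over 14 values, so these names carry no test.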

How the data were processed

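The log2 values were computed by the authors with RMA in Affymetrix Expression Console (background correction, sketch-quantile normalization and a median polish of probes to probe sets), and were deposited as 1 value per probe set and array. The program versions are not stated here. Quantile normalization sets the arrays' distributions alike, and folds near background are understated. The number of arrays limits the precision, and no depth applies. The labels call the samples biological replicates, and a number that a lesion and a wild-type pituitary share only names them. Of 29214 probe sets, 15310 carry 1 gene symbol, 323 several and 13581 none.

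Lesions were averaged by sample number. limma 3.58.1 in R 4.3.3 was run on every probe set with group as the single term (12 residual and 3.212 prior degrees of freedom), no filter on low values and Benjamini-Hochberg adjustment over all probe sets, with calls at an adjusted p under 0.05. Sex was tested as an interaction and age as a slope over the 9 adenoma values. Pairs of markers were tested by all 362880 permutations of the 9 rats (Python 3.11.15). Scripts were tested on simulated data. The members, gene lists and cell type markers were chosen with earlier results of these data known. Named were all members, of each list the called genes, up to 4 by size, and the genes most like each member. Alternatives left out each rat, kept 1 number series or age group, used single lesions with the rat or the replicate number as a block, and changed the scaling, weights, covariates and probe sets. The lesion differences without rat 3, and the comparison with cell type lists were chosen after seeing the data.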

Additional observations from a re-analysis of the deposited data

Results flagged for a closer look

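Values of a sample that stood far from the other samples of its group (the gap to the nearest sample over the range of the group, Dixon's 95% critical value) were found in 7 of 120 groups checked, over the named genes in 9 MENX rats and 5 wild-type pituitaries. Chance gives about 1 group in 20. Sox2 was far above the other wild-type pituitaries in pituitary 2, at 7.97. Gja1 was far below the other MENX rats in rat 8, at 6.37. Of the genes most like Gja1, Gle1 at 6.63 and Tek at 5.80 also stood apart in rat 8. In the same rat S100a13 stood apart at 6.29, and Ppp1r11, which resembled the mean of the markers, at 8.14. Gle1, Tek and Ppp1r11 were chosen for likeness over values that include rat 8, so they are not separate cases. Fbln2, one of the genes most like S100b, stood apart in wild-type pituitary 5 at 6.74. Rat 8 gave 1 lesion, so its values have no second lesion beside them.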

How the results depend on the processing

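The 4 markers called lower (Sox2, S100a1, Cpxm2 and Slc15a2) kept that call in all 14 fits that left out 1 rat, so that the count ranged between 4 and 4. With single lesions and the rat as a random block the count was 4. With the replicate number as a replicate block it was also 4, and these numbers only name samples. Of the 5 numbers that lesions and wild-type pituitaries share, 2 had a correlation of deviations over 0.1 (range -0.05 to 0.20) and 0 lesions were nearest to their own number. Sample numbers 08 alone gave 2 (S100a1 and Cpxm2), numbers 09 alone gave 2 (S100a1 and Slc15a2), and adenomas of 7 or 8 months alone, from 2 rats, gave 0. Those fits hold fewer samples. The direction of all 4 was the same in every alternative run. Of the markers without a call, S100b and Anxa1 changed sign with numbers 09 alone, to 0.10 and 0.18. The count called higher was 0 in the other alternatives and ranged between 0 and 1 over the fits without 1 rat, with Krt18 called without wild-type pituitary 1. The median r over pairs was 0.15 across the rats. It was -0.054 without the 2 rats farthest from the median of each pair and 0.48 for the differences between lesions of a rat, and it ranged between -0.13 and 0.27 without 1 rat each, with -0.0011 without rat 1. It was 0.23 over 16 single lesions, 0.28 over 14 values after subtraction of group means, 0.18 with arrays centred on their median, and 0.21 for lesion differences without rat 3. The cause of these changes was not tested. Probe sets near the background, such as Prom1 and Cpxm1, have compressed folds.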
